A study of Drosophila melanogaster with 2 samples.

Results

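The genes described here are 10 members of the ecdysone response and nuclear receptor group of Drosophila melanogaster, named by symbol: EcR, usp, Eip74EF, Eip75B, br, Eip78C, Hr3, Hr4, ftz-f1 and Hr39. They are 10 of 13968 protein-coding genes on the chromosome arms. Binding of the homeodomain protein Ptx1, carried as a fusion to the green fluorescent protein eGFP, was profiled by chromatin immunoprecipitation and sequencing in whole embryos. Both samples are biological replicates of 1 group: flies transgenic for Ptx1-eGFP, collected as embryos of age 0 to 24 h, with chromatin sonicated into pieces of 200 to 800 bp. The labels describe an anti-GFP precipitation, while their antibody field reads Ptx1. Whole organisms mix all embryonic cell types and stages of that day, so a site cannot be placed in a tissue. Read depth is unknown, and a control is not analysed here.

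Ecdysone, the steroid hormone of insects, acts through a heterodimer of the nuclear receptors EcR and usp. The liganded receptor switches on a small set of early regulatory genes, whose products then act on later nuclear receptor genes and on the genes of moulting and metamorphosis. In embryos a pulse of the hormone precedes the movements and cuticle formation of mid to late embryogenesis. Most genes of the cascade are long and have alternative promoters that yield different isoforms.

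Of the 10 genes, 9 held a summit of the conservative peak list in the gene body or within 5000 bp of it. A selection of these sites is shown first, from 5 of the genes and not by score alone, as windows of 101 bases centred on the summit and read 5′ to 3′ on the strand of the gene from the RefSeq copy of the dm6 assembly. No window is shown for EcR, Hr3, usp or Eip75B. Capitals mark TAATCC, recognised by bicoid-type homeodomains such as that of Ptx1, or TAATTA, the core of many other homeodomains. The first pair are the strongest site of Hr4 and the site in the br flank, and both hold TAATCC.
Hr4 intron site, chrX:1963888-1963988, plus strand: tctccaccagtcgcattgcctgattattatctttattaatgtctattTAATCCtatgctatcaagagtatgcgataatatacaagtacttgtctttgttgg
br downstream site, chrX:1669357-1669457, plus strand: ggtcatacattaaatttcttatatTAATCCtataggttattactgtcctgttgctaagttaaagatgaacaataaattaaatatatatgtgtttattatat
The next set are the strongest intron sites of br, Eip74EF, ftz-f1 and Eip78C, shown because they hold none of the searched cores, as most windows do.
br intron site, chrX:1618799-1618899, plus strand: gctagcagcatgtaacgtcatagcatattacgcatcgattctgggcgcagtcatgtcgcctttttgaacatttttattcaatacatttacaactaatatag
Eip74EF intron site, chr3L:17566990-17567090, minus strand: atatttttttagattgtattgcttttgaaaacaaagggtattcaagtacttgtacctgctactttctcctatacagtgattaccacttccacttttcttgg
ftz-f1 intron site, chr3L:18769485-18769585, minus strand: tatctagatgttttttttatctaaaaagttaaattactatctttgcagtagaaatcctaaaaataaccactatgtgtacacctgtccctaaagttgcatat
Eip78C intron site, chr3L:21253802-21253902, plus strand: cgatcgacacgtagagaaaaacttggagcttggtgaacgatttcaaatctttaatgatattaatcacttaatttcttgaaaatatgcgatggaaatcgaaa
The last is a site in an intron of the long Eip74EF transcripts, shown for a long inverted repeat that is described with that gene.
Eip74EF 5′ intron site, chr3L:17613634-17613734, minus strand: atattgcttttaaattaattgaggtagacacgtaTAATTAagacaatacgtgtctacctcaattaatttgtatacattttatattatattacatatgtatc

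The deposited lists had passed an irreproducible discovery rate (IDR) analysis, which ranks peaks by how well the peak sets compared agree. Each peak has a strength score of the authors, without a stated unit and used here to rank and describe peaks within a list, and a scaled IDR score that ends at 1000. A lower score cannot tell fewer bound cells from weaker binding per cell. Every peak of the thresholded lists has a scaled score of at least 830. In a list of 1 replicate that score is not agreement between the 2 samples. At Hr39, for example, a peak of replicate 1 had 838 where the pair had 56. The conservative list, built from the replicate pair, held 6824 summits on the arms, with a median score of 129, while 6947 ranked peaks of the pair reached 830 there. Each replicate also has a thresholded list of its own and a longer ranked list, from which the score of a site in that replicate was read within 100 bp of the conservative summit. Intervals are exact Clopper-Pearson for shares and exact Poisson for densities, at 95%, and cover counting alone. With 1 group there is no contrast between conditions, and shares at these genes stand beside the same share over all genes or summits as a description without a test.

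The 10 genes together held 62 conservative summits in 661 kb, or 0.938 per 10 kb (interval 0.719 to 1.20), against 0.496 per 10 kb over the arms. Their scores ran between 30.0 and 1576 with a median of 133, beside the 129 of all conservative summits, so they lay denser than over the arms as a whole, with a similar median score. Among all coding genes 56.6% had a summit by the same rule. That share rises with gene length: it was 53.7% below 10 kb, 73.0% between 10 and 50 kb and 78.6% above 50 kb, and 6 of the 10 genes are longer than 50 kb. The presence of a summit at 9 of 10 genes is therefore read beside their length.

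The crowding was uneven. Hr4 and ftz-f1 held 29 of the 62 summits, and the other 8 genes together had 0.629 summits per 10 kb. The 6 members above 50 kb had 1.03 per 10 kb, against 0.375 for all coding genes of that length, while the 4 shorter members had 0.575, against 0.651 for coding genes between 10 and 50 kb and 0.746 for those below 10 kb. By count, 3 members (Eip75B, Hr4 and ftz-f1) held 10 or more summits, which 49 coding genes (0.351%) do. All 3 are above 50 kb, and no coding gene below 10 kb held more than 9 summits. Among the 313 coding genes above 50 kb, 21 (6.71%) held at least the 12 summits of Eip75B. Of the 6 members in that class ftz-f1, at 50.7 kb, lies just above its lower edge.

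**Figure D1:**
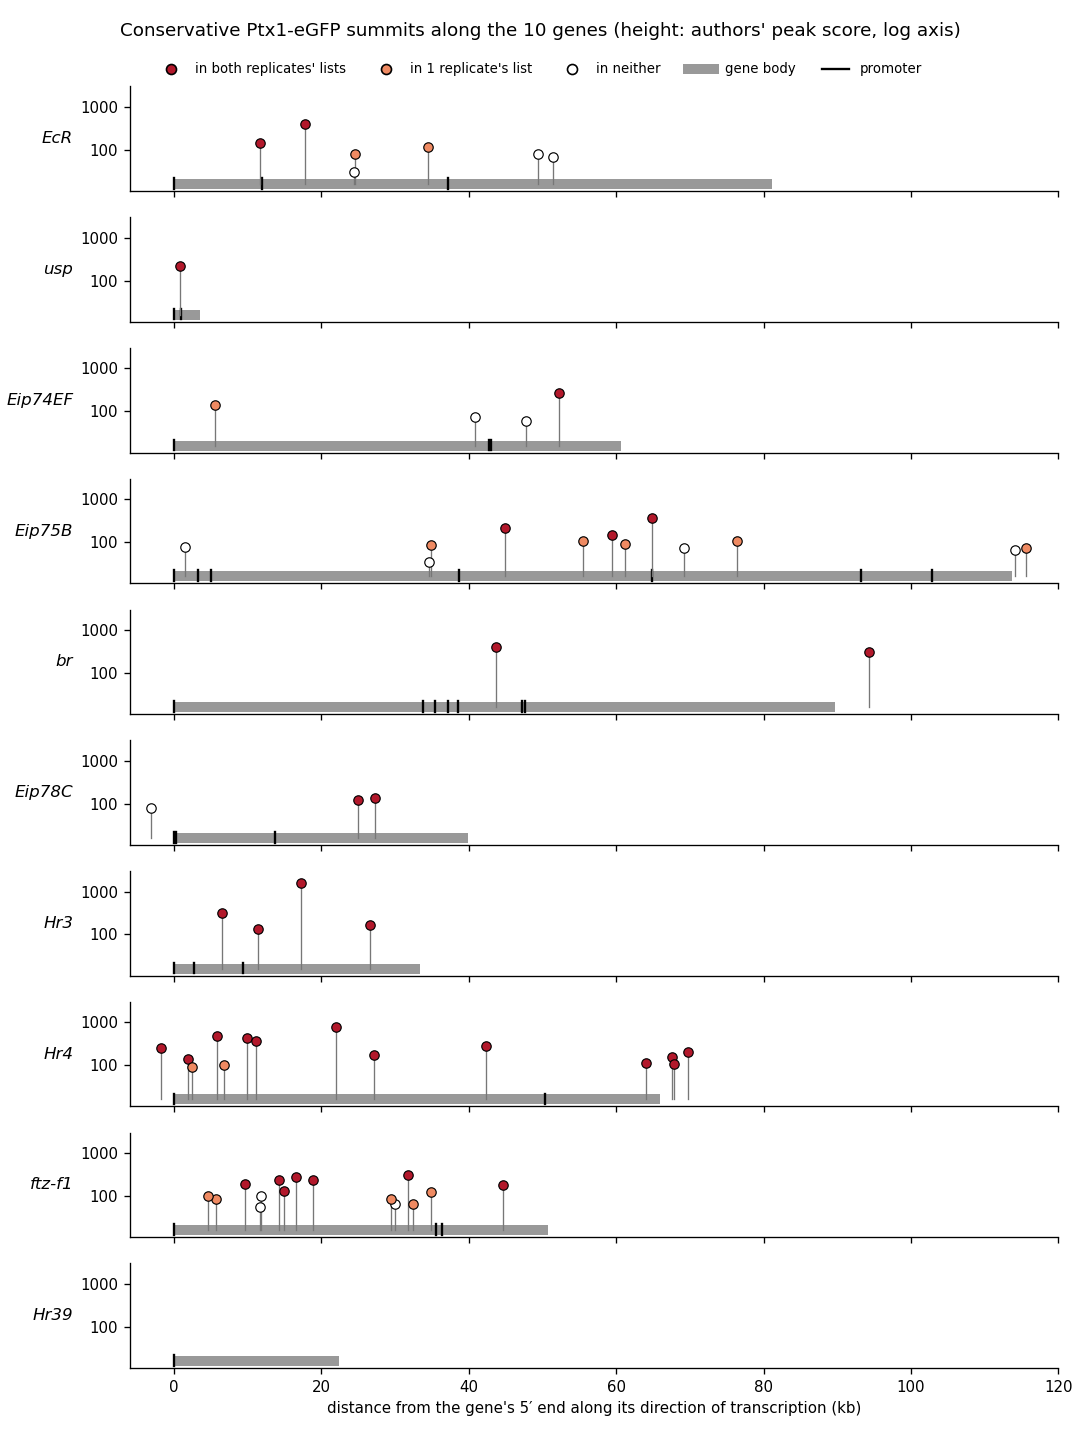
Maps of the 10 genes, each drawn from its 5′ end along its direction of transcription (x axis, kb), with gene bodies as grey bars, promoters as black ticks and conservative summits as circles whose height is the authors' peak score on a log axis. Filled red circles lie in both replicates' own lists, orange circles in 1 of them and open circles in neither. Hr3 carries the highest summit (1576), Hr4 and ftz-f1 the most (14 and 15), and Hr39 none.

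The 2 replicates gave similar but not equal lists at these genes. A summit of both replicates' thresholded lists lay within 100 bp of 34 of the 62 conservative summits (54.8%, interval 41.7 to 67.5), against 56.5% of all conservative summits. The list of replicate 1 held a partner for 45 of the 62 (72.6%, against 69.9% of all summits) and that of replicate 2 for 38 (61.3%, against 64.4%). No thresholded partner existed for 13 (21.0%, against 22.2%). Those 13 had scores between 30.0 and 98.9, and the 34 found in both had scores between 105 and 1576. Summits in the list of just 1 replicate overlapped both ranges, with scores from 64.8 at ftz-f1 to 144 at Eip74EF. The score of the pair comes from the same replicates, so score and replicate support are not independent measures. The other thresholded list made from both samples held 54 of the 62 (87.1%), against 90.5% of all conservative summits. Those 54 had the same summit and score in both lists, so the share is not a second measurement. Its scaled IDR scores are not those of the ranked pair list: 1 Eip74EF peak had 1000 there and 542 in the pair.

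Of the 62 summits, 56 had a ranked peak in both replicates. The score was higher in replicate 1 at 48 of these (85.7%), with a median ratio of replicate 1 to replicate 2 of 1.28 and a range of 0.574 to 1.96. Over all 6182 conservative summits with both scores the median ratio was 1.25 and 80.8% were higher in replicate 1. The lean towards replicate 1 was thus of the size seen across the genome.

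**Figure D2:**
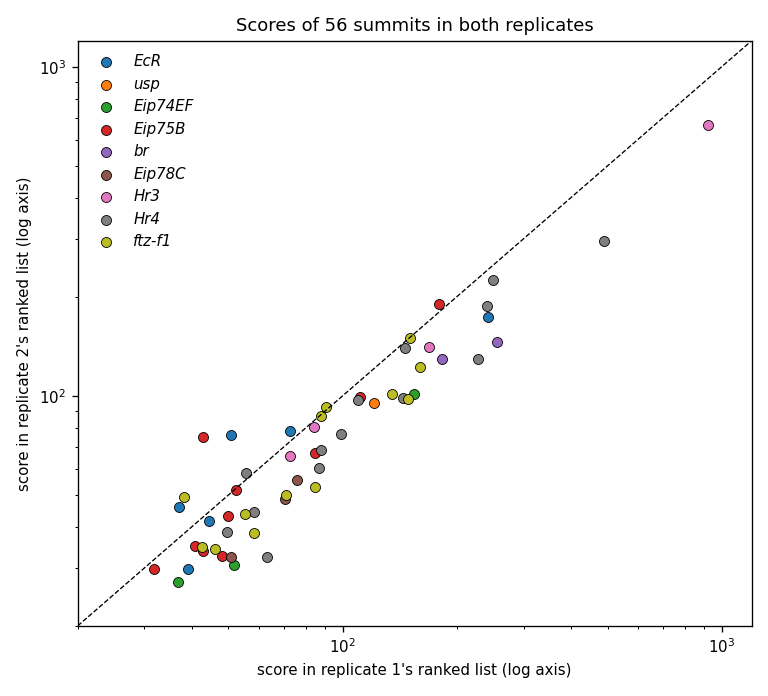
Score of each of the 56 summits in the ranked list of replicate 1 (x axis) and of replicate 2 (y axis), both on log axes without a unit, coloured by gene. The dashed line marks equal scores, and 48 points lie below it, with Hr3 at 918 and 665 at the upper end.

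By position, 52 of the 62 summits lay in introns (83.9%, interval 72.3 to 92.0), against 50.1% of all conservative summits. Introns make up most of long genes, and over the 1244 summits at coding genes above 50 kb the intronic share was 81.7%. Of the 62 summits, 11 (17.7%, interval 9.20 to 29.5) lay within 1000 bp of a start of any gene, against 51.3% of all summits and 28.4% at the long genes. At 25 of the 62 (40.3%) the nearest start of any gene was more than 5000 bp away, against 19.2% of all summits and 38.5% at the long genes. The intronic and distal placement of the sites was thus close to that at long genes in general. No summit fell in a coding exon, which allows a share of up to 5.78%, and 0.923% of all summits did.

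Of the 11 summits near a start, 4 were nearest to a start of the member itself and 7 to a start of another gene. The 4 belonged to EcR, usp, Eip75B and ftz-f1. So 4 of 10 members had a summit within 1000 bp of a start of their own, against 26.7% of all coding genes. Any start of a gene counts, and these genes have 37 distinct starts, so the comparison does not allow for starts per gene. The 7 summits nearest to another gene's start lay by CG3857, PIG-K, lncRNA:CR45478 and east at the ends of Hr4, by Mur2B and CG3740 at br, and by lncRNA:CR46322 inside Hr3.

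**Figure D3:**
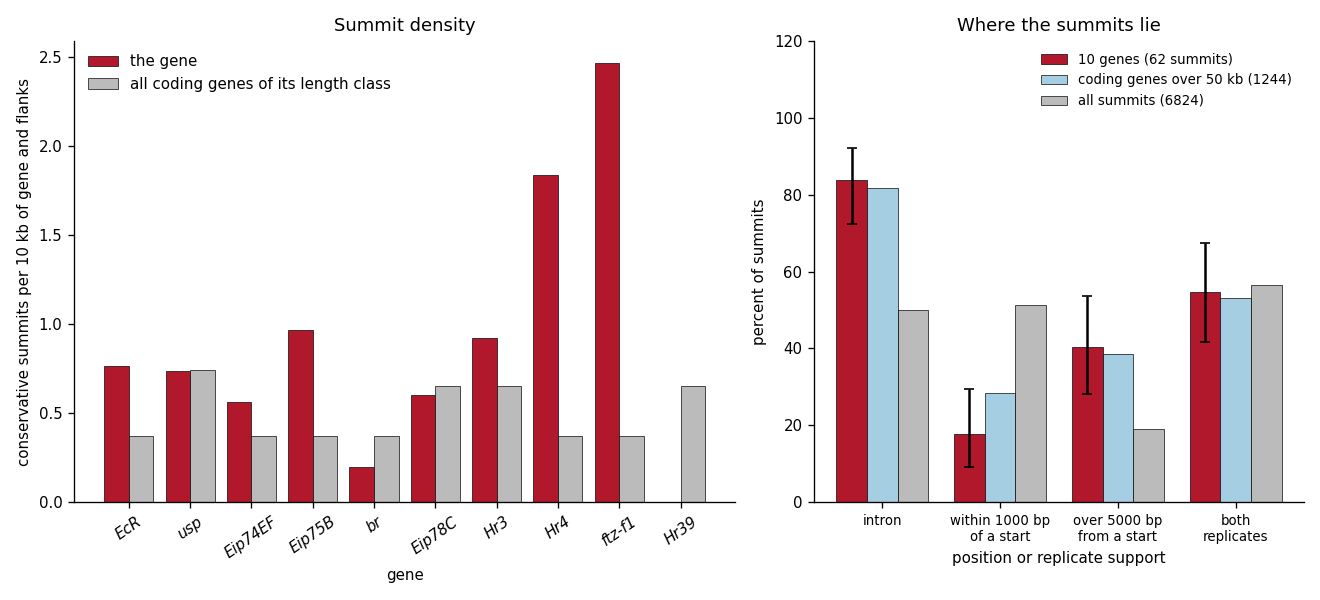
Left, conservative summits per 10 kb of gene and 5000 bp flanks for each gene (red) and for all coding genes of its length class (grey). Right, percent of summits in introns, near a start, far from a start and in both replicates, for the 62 summits of the 10 genes (red, bars with exact 95% intervals), the 1244 summits at coding genes above 50 kb (blue) and all 6824 (grey). ftz-f1 (2.47) and Hr4 (1.84) stand far above their class (0.375), of which ftz-f1, at 50.7 kb, lies near the lower edge. The red and blue bars on the right are near each other except close to starts (17.7% and 28.4%).

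Alternative promoters were compared at a finer scale. The 63 annotated transcripts of the 10 genes begin at 37 distinct starts, which form 34 promoters once starts within 100 bp are joined, and 9 of the genes have at least 2. A conservative summit lay within 500 bp of 3 of the 34 promoters: the second of EcR, the second of usp and the fifth of Eip75B. Over the 8270 promoters of all coding genes with 2 or more, 23.7% had one. The 34 also include the single promoter of Hr39, a kind left out of that share. In these 3 genes, with 3, 2 and 7 promoters, the bound promoter was not the one at the 5′ end. The same share over all coding genes was not computed, so this is not shown to be particular to them.

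In the full ranked list, before the threshold, 26 of the 34 promoters had a peak within 500 bp, against 66.1% of such promoters in general. The single promoter of Hr39 is among the 26, and the promoters of Eip74EF-RB and Eip74EF-RD share a peak. Apart from the 3 promoters that passed, the scaled IDR scores at the 26 ran from 26 to 813 with a median of 91. Over the whole windows 62 of 534 ranked peaks (11.6%) reached 830, against 7.68% of all ranked peaks. The pass share differed widely between the genes, with 30.0% at ftz-f1, 1.92% at br and 0 of 6 at Hr39.

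**Figure D4:**
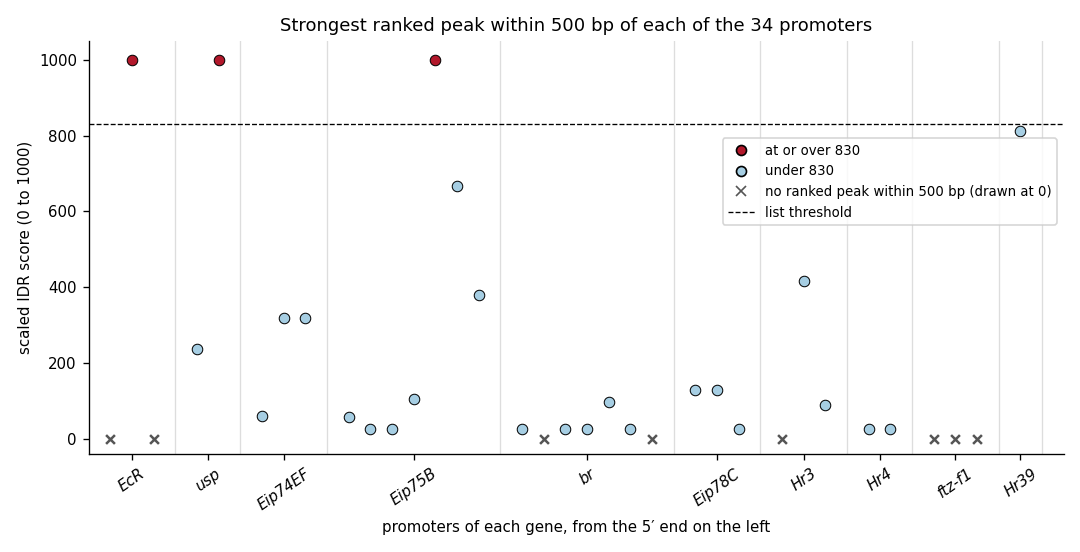
Scaled IDR score (y axis, 0 to 1000, without a unit) of the strongest ranked peak within 500 bp of each of the 34 promoters, grouped by gene with the 5′ promoter on the left. Red points reach the threshold of 830 (dashed line), blue points do not, and crosses at 0 mark the 8 promoters with no ranked peak. Points pass at EcR, usp and Eip75B, and the Hr39 point (813) lies just under the line.

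EcR, the ecdysone receptor itself, spans chr2R:6087873-6169087 on the minus strand and held 7 conservative summits, all in introns. Its promoter at EcR-RD and EcR-RE had a summit 297 bp upstream with a score of 148, and 72.6 in replicate 1 and 78.2 in replicate 2. The 5′ promoter of EcR-RA had no ranked peak within 500 bp, and that of EcR-RB, EcR-RC and EcR-RG had one in replicate 2 alone, with a score of 16.9. Both replicates thus placed the EcR promoter signal at EcR-RD and EcR-RE.

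The strongest EcR site lay deep in the gene, 5844 bp downstream of the EcR-RD start, with a score of 410, and 242 in replicate 1 and 173 in replicate 2. It was 1391 bp from the start of a tRNA gene, tRNA:Asn-GTT-1-1. Of the other 5 summits none was in both replicates' lists, and 2 lay 200 bp apart, with scores of 78.3 and 30.0. The summit at 30.0 had no ranked peak within 100 bp in either replicate, so it may not be a separate site. In both replicates' lists 2 of the 7 sites were found, and the own lists held 2 summits in replicate 1 and 4 in replicate 2.

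The gene usp encodes the retinoid X receptor homologue that pairs with EcR. It is short, at chrX:2038798-2042311 on the minus strand, and its single conservative summit lay 169 bp upstream of the usp-RA start, inside the 5′ untranslated region of usp-RB. The score was 223, with 121 in replicate 1 and 95.4 in replicate 2. The neighbouring gene Actn, on the same strand, also spans this position. The usp-RB promoter, 999 bp further 5′, had a ranked peak with a scaled IDR score of 238 and did not pass.

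Replicate 1's own list placed 3 summits at usp and that of replicate 2 placed 1, so the count depends on the list while the promoter site does not.

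Among the early genes, Eip75B, a haem-binding nuclear receptor that represses Hr3 activity, had the most summits and the highest density. By score it did not lead: its top score was 368 and its median 87.7, against 406 and 357 at br, and 3 of its 12 summits were in both replicates. The own lists held 8 summits here in replicate 1 and 6 in replicate 2. It spans chr3L:17950953-18064696 on the minus strand and has 7 promoters and 12 conservative summits. The strongest summit sat 36 bp downstream of the Eip75B-RC start, with a score of 368, and it is the strongest promoter site among the 34. It scored 180 in replicate 1 and 190 in replicate 2, 1 of 8 summits in these genes that were not higher in replicate 1.

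The other Eip75B promoters were weaker. At Eip75B-RA a summit passed in replicate 2's own list, with a score of 37.5, while the pair reached a scaled IDR score of 668. At Eip75B-RD the pair reached 380, and at the remaining 4 promoters between 26 and 106. Eip75B-RC was thus the promoter with the highest score in the pair and in each replicate.

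Further Eip75B summits found in both replicates lay in introns, at 6223 bp downstream of the Eip75B-RG start (score 209, with 111 in replicate 1 and 99.2 in replicate 2) and 5439 bp upstream of Eip75B-RC (149, with 84.7 in replicate 1 and 66.9 in replicate 2). The other 9 were in 1 replicate's list or neither. A pair of them lay 240 bp apart with scores of 85.5 and 35.4. The weaker had no ranked peak within 100 bp in either replicate, so it may not be a separate site.

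Eip74EF, an ETS-domain transcription factor and a classic early puff gene, spans chr3L:17558672-17619325 on the minus strand. It had 4 conservative summits, all in introns, with none within 1000 bp of a start. The strongest scored 265, with 154 in replicate 1 and 101 in replicate 2, and lay 9280 bp downstream of the Eip74EF-RD start, in an intron that all 5 transcripts span. It was the 1 site of this gene found in both replicates, and its sequence is among those given above.

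The second Eip74EF site by score, at 144, lay 5641 bp inside the long transcripts Eip74EF-RA, Eip74EF-RC and Eip74EF-RE. It scored 72.8 in replicate 1, and replicate 2 had no ranked peak within 100 bp. Its window holds an inverted repeat with 2 perfect arms of 24 bp around a gap of 10 bp, centred 10.5 bp from the summit. Among all 6824 windows this was the 1 window whose longest arm reached 15 bp with a gap of at most 20 bp, and the median longest arm was 6 bp.

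The gene br, the Broad-Complex, encodes zinc-finger proteins needed for the pupal programme. It spans chrX:1575132-1664869 on the plus strand, has 7 promoters and 16 transcripts, and held 2 conservative summits, or 0.201 per 10 kb against 0.602 on its arm. Both were strong and in both replicates. The intronic one scored 406, with 255 in replicate 1 and 146 in replicate 2, and lay 3459 bp upstream of br-RS and 694 bp upstream of a start of Mur2B, a gene that overlaps br on the other strand.

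The downstream br site scored 308, with 183 in replicate 1 and 129 in replicate 2, and lay 4538 bp past the 3′ end and 110 bp upstream of the start of CG3740. Both br sites were thus nearer to a start of a neighbour than to one of br. None of the 7 br promoters passed. Of these, 5 had a ranked peak with scores between 15.4 and 26.9, and 4 of the 5 stood at the lowest scaled IDR score of the list, 26. With 104 ranked peaks br had the most candidates of the 10 genes and the second lowest pass share, after Hr39.

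Of the early-late receptors, Eip78C, a relative of the vertebrate Rev-erb receptors, spans chr3L:21226609-21266503 on the plus strand and held 3 conservative summits. A pair in introns were found in both replicates: one scored 135, with 76.0 in replicate 1 and 55.7 in replicate 2, and the other 120, with 70.4 in replicate 1 and 48.6 in replicate 2. They lay 2286 bp apart, and each was more than 10 kb from a start of Eip78C. The third, 3142 bp upstream of the gene, scored 80.9 and was in neither replicate's list. At the 3 promoters the scaled IDR scores reached at most 130.

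Hr3, the orphan receptor related to vertebrate ROR that activates ftz-f1, carried the strongest site of the set. It spans chr2R:10203995-10237348 on the minus strand and held 4 conservative summits, all intronic and all in both replicates. The highest scored 1576 and ranked 38 in the conservative list, in the top 0.556%. It scored 918 in replicate 1 and 665 in replicate 2 and lay 7880 bp downstream of the start shared by Hr3-RA, Hr3-RF and Hr3-RH, so it is not a promoter site of any annotated Hr3 transcript.

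The other Hr3 summits scored 310, 168 and 132. The one at 310, with 169 in replicate 1 and 141 in replicate 2, lay 2921 bp upstream of the Hr3-RA start. The one at 168 lay 563 bp from the start of lncRNA:CR46322. Transcripts annotated as CG12912 and CG46321 share the Hr3 body on the same strand, so these sites cannot be assigned to 1 gene. No Hr3 promoter passed, and the nearest to passing in the pair, of Hr3-RC and Hr3-RI, reached a scaled IDR score of 416. It had a ranked peak in replicate 2, with a score of 26.4, and none in replicate 1. The promoter of Hr3-RA, Hr3-RF and Hr3-RH had ranked peaks in both, with scores of 14.2 in replicate 1 and 20.7 in replicate 2.

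Hr4, an orphan nuclear receptor that acts in growth and maturation timing, spans chrX:1941940-2007956 on the plus strand and held 14 conservative summits, of which 12 were in both replicates. It had 1.84 per 10 kb, against 0.602 on its arm, and 14 of the 313 coding genes above 50 kb (4.47%) held at least as many. The strongest site scored 786 and ranked 203, with 490 in replicate 1 and 296 in replicate 2. It lay 21998 bp into the long transcripts and its window holds TAATCC.

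Next came intronic sites with scores of 483, 427 and 359. The site at 483 scored 249 in replicate 1 and 225 in replicate 2, that at 427 scored 240 in replicate 1 and 187 in replicate 2, and that at 359 scored 227 in replicate 1 and 129 in replicate 2. These 4 strongest lie between 5803 and 21998 bp from the 5′ start, and the site at 427 also holds TAATCC. The scores were higher in replicate 1 at 13 of the 14 Hr4 summits.

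The 2 Hr4 promoters were themselves weak, with ranked peaks at the lowest scaled IDR score of 26. The 4 summits in the Hr4 flanks lay by starts of other genes: 247 at 127 bp upstream of CG3857, 156 at 155 bp upstream of PIG-K, 105 at 216 bp upstream of lncRNA:CR45478 and 208 at 564 bp upstream of east. Without the flanks Hr4 held 10 summits.

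The competence factor ftz-f1, an orphan receptor of the NR5A family that also partners the pair-rule protein Ftz in early embryos, spans chr3L:18750607-18801309 on the minus strand. Its 15 conservative summits were the most of the 10 genes, at 2.47 per 10 kb against 0.511 on its arm, and 8 of the 313 coding genes above 50 kb (2.56%) held at least as many. By density it came first among those 313, but at 50.7 kb it lies just above the lower edge of that class. Coding genes between 10 and 50 kb had a higher pooled density, 0.651 per 10 kb, and up to 15 summits in a gene. All 15 were in introns, and 14 lay in the part of the gene spanned by ftz-f1-RB alone, between its start and that of ftz-f1-RC 35.6 kb further on.

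The strongest ftz-f1 site scored 302, with 151 in replicate 1 and 150 in replicate 2, and lay 3791 bp upstream of the ftz-f1-RC start. The next scored 278, with 160 in replicate 1 and 122 in replicate 2, and lay 16547 bp downstream of the ftz-f1-RB start. In all 7 of the 15 were in both replicates' lists. Replicate 1's own list held 13 summits here and replicate 2's held 8, and the sites formed a field of moderate peaks with no score above 302.

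The summit nearest to a ftz-f1 start lay 659 bp upstream of ftz-f1-RC, with a score of 127, 70.7 in replicate 1 and 49.9 in the ranked list of replicate 2, where it did not pass. None of the 3 ftz-f1 promoters had a ranked peak of the pair within 500 bp. Of the 15 summits, 9 also lie in lncRNA:CR45939, a noncoding gene annotated on the same strand across the 5′ part of ftz-f1, so these sites cannot be assigned to 1 of the genes.

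Hr39, the NR5A relative of ftz-f1, spans chr2L:21237250-21259675 on the plus strand and had no conservative summit. A ranked peak lay 28 bp from its start, the start of all 4 transcripts, with a score of 66.7 and a scaled IDR score of 813, just under 830. It scored 44.5 in replicate 1 and 26.6 in replicate 2. Of coding genes between 10 and 50 kb, 27.0% likewise had no summit, and at this threshold a promoter site at Hr39 was not called rather than shown to be absent.

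**Figure D5:**
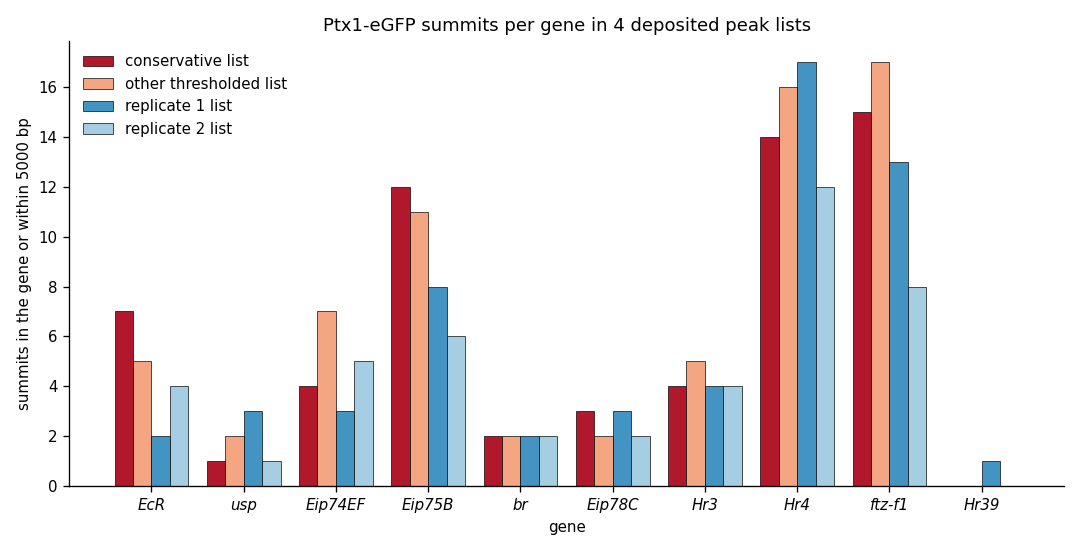
Number of summits in each gene or within 5000 bp of it (y axis) in the conservative list, the other thresholded list and the own lists of replicates 1 and 2, by gene (x axis). Hr4 (14, 16, 17 and 12) and ftz-f1 (15, 17, 13 and 8) lead in every list, br has 2 in each, and Hr39 has 1 summit, in replicate 1's list.

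The edge of the window decided few sites: 54 summits lay in the gene bodies, 62 with flanks of 5000 bp and 66 with flanks of 10000 bp. The farthest summit inside the 5000 bp was the br site at 4538 bp, and the nearest outside was at 7597 bp from Hr3 (score 139). A site with a score of 939 lay 7966 bp from usp, outside the window and 157 bp upstream of the start of moody. Split peaks added little: joining summits within 500 bp left 58 sites of the 62 summits.

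Windows of 101 bases at the 62 summits were searched on both strands for 8 motifs. TAATCC was in 4 windows (6.45%, interval 1.79 to 15.7), against 3.81% of all conservative windows, and these lay in EcR, in Hr4 at both sites named above and at the downstream site of br. The related core TAAGCC occurred in 1 window (1.61%, against 4.37%), in Eip75B. Neither share could be told from that of all windows within its interval.

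AGGTCA, the core recognised by many nuclear receptors, was in 1 window (1.61%, against 1.98%), that of an Eip74EF site with a score of 75.6. TCAAGGTCA, which contains AGGTCA and is bound by ftz-f1, was in none, against 0.0147% of all windows. TATCGATA, the DNA replication-related element, and GGTCACAC, a core promoter element, were in none as well, against 1.42% and 0.733%. TAATTA was in 5 (8.06%, against 10.7%) and GAGAG, the GAGA factor element, in 6 (9.68%, against 8.76%). In all 17 windows (27.4%) held at least 1 of the 8, against 29.2% of all windows, so most of the sites at these genes hold none of the letters searched. Base composition was also close, with a median GC content of 32.7%, against 31.7% over all windows.

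The rest of the hormone pathway was summarised over 5 lists of 51 genes in all, by a conservative summit within 1000 bp of a start, which 26.7% of coding genes had. In the list of import, cofactor and timing genes 8 of 12 had one. The highest score was 1452 at brm, a chromatin remodelling ATPase, with 880 in replicate 1 and 581 in replicate 2. Next came alien at 456, the coactivator tai at 360 and the chaperone gene Hsc70-4 at 288. All 12 had a summit in the gene or within 5000 bp, which 56.6% of all coding genes had.

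Of 13 other nuclear receptor genes, 6 had a summit near a start, led by Hr96 at 574 (361 in replicate 1 and 212 in replicate 2), ERR at 451, Hnf4 at 219 and Hr78 at 199. None of the 8 matched genes of ecdysone synthesis and clearance had one, which allows a share of up to 36.9%. In the gene or within 5000 bp 4 of the 8 had a summit, near the 56.6% of all coding genes. Near a start, 4 of 16 other ecdysone-regulated genes had a summit, namely Ldh at 505, Eip63F-1 at 348, ken at 142 and Eip63E at 105. In the gene or within 5000 bp 12 of the 16 had one (75.0%). Of the 2 juvenile hormone receptor genes gce had a summit near a start, at 1010. The lists are small, and the counts are given without a test.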

How the data were processed

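Peak lists from 2 biological replicates of 1 group were used. The authors deposited narrow peak lists on dm6, ranked and thresholded by IDR, each with a strength score of unstated unit, a scaled IDR score and a −log10 q value, which served as an alternative ranking. Reads had been aligned and peaks called with tools not given in the sources used here. Read depth is unknown, so precision rests on numbers of peaks. Summits were placed 1-based and counted in each gene body with 5000 bp flanks, using Ensembl 115 genes without transposable elements, on the 7 chromosome arms (X, Y, 4 and both arms of the large autosomes). Starts within 100 bp formed 1 promoter. Gene coordinates equalled those of RefSeq for all 10 genes, and sequences come from that genome. Replicate scores came from each replicate's ranked list, within 100 bp.

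The members and lists were chosen with earlier results of these data known, so counts are descriptions without tests. The rule for named genes takes the 10 members, other genes whose start lies within 1000 bp of a member summit, and up to 4 genes per list by score. The genes moody, CG12912, CG46321, Actn, lncRNA:CR45939 and the tRNA gene were named after their values were seen, and so was the search for inverted repeats. The functions were tested on simulated data. Of the listed genes, phm and Eip28-29kD were not matched, and 4 symbols were matched through synonyms (alien, MsrA, Cth and Ldh). Alternatives covered the peak list, each replicate alone, flanks, windows, promoter definitions and motif windows. Counting used pandas 2.3.3, with numpy 2.4.6 under Python 3.11.15. Intervals came from scipy 1.17.1, and plots from matplotlib 3.10.9.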

Additional observations from a re-analysis of the deposited data

How the results depend on the processing

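Of the values that summarise the genes together, 55 of the alternative values stayed within 1.5 times the count, or within the interval of the share or density, and 9 did not. With replicate 2's list by itself the density fell outside its interval, at 0.665 per 10 kb, and replicate 1's list gave 0.847. The summits numbered 44 and 56 in those lists, within 1.5 times of 62. Those lists are shorter, with 4822 and 5463 summits on the arms against 6824 in the conservative list. The higher-score part of the conservative list held 32 summits at the genes, or 0.484 per 10 kb, of which 96.9% were in both replicates. It kept 51.6% of the 62 summits and 50.1% of all conservative summits, so 0.484 is not comparable with the 0.496 of the full list. With a start window of 250 bp 2 genes had a summit near a start. With a scaled IDR of at least 540, 5 promoters had a summit, as did 5 with a promoter window of 1000 bp. Motif windows reaching 150 bp either side gave 43 windows with any motif, and those reaching 25 bp gave 8. The members with a summit numbered 9 or 10 in every list and flank tried.

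Near starts, 3 members had a summit in replicate 2's list and 4 in replicate 1's. Promoters with a summit numbered 4 and 3 in those lists, and listed pathway genes with one numbered 17 and 15. For single genes and motifs, 34 values moved beyond that range and 83 did not. In the higher-score part Eip75B held 3 summits, ftz-f1 7, EcR 2, Eip74EF 2 and Eip78C 1. In replicate 2's list Eip75B held 6, ftz-f1 8 and EcR 4, and in replicate 1's list EcR held 2, usp 3 and Hr39 1. Eip74EF held 7 in the other thresholded list and at a scaled IDR of at least 540, where Hr3 held 7, usp 2 and Hr39 1. The other list gave usp 2, a flank of 10000 bp gave usp 3, and flanks of 0 or 1000 bp gave br 1. The rest were single motifs, 1 of them (AGGTCA, 0) in the other list and the others in longer or shorter windows, and the promoter with the highest score. That promoter was the same by −log10 q value and in replicate 2's list in 7 of 7 genes, and in replicate 1's list in 3. Hr4 had a ranked peak at 1 promoter alone in each replicate, and Eip78C in replicate 2, so agreement there was fixed. In replicate 1 no Eip78C promoter had a ranked peak, and this gene is counted as changed. Eip74EF-RB and Eip74EF-RD were tied on their shared peak. The alternatives that merged summits and that varied the pathway lists were chosen after seeing the data. No paired analysis was possible because both samples form 1 group. Read depth is unknown, so sites missing from a list may lie below its detection limit.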

Other observations

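Some sites at these genes stood in other lists and not in the conservative one: 10 in the other thresholded list, 5 in that of replicate 1 and 4 in that of replicate 2. Eip74EF held the most of these. Replicate 2 placed a summit 2325 bp from the nearest Eip74EF start with a score of 81.5, where the pair reached a scaled IDR score of 542, and another at 7858 bp with a score of 55.7, where the pair reached 572. At usp, replicate 1 placed a summit 4291 bp from the usp-RA start with a score of 49.6, and the pair reached 822, close under 830. At Hr39 replicate 1 placed one 2892 bp from the start with a score of 41.4, where the pair reached 56. The Eip75B-RA promoter summit of replicate 2, 261 bp from its start, is the site of this kind nearest to a start.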
